A study of Homo sapiens with 9 samples.

Results

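Transcripts of 10 genes of the YAP/TEAD system were followed in LX-2, a human cell line derived from immortalised hepatic stellate cells: the coactivators YAP1 and WWTR1, the DNA-binding factors TEAD1 and TEAD4, the regulators LATS2, AMOTL2 and AJUBA, and the targets CCN1, CCN2 and ANKRD1. These genes were chosen by name, with earlier results of these data known, and all 10 were found among the 20777 genes listed in the series. A filter on low counts kept 13384 genes and 9 of the 10, since ANKRD1 did not pass it. CCN1 rose 2.98-fold and CCN2 6.88-fold with TGF-β. With uridine also given, both lay between their control and TGF-β levels, but their difference from TGF-β alone did not pass the edgeR test across all genes. The transcripts of the coactivators, TEAD factors and regulators passed this test in no comparison.

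YAP1 and WWTR1 (TAZ) are coactivators that do not bind DNA themselves and act through TEAD factors. In the Hippo pathway the kinases STK3 and STK4 activate LATS1 and LATS2, which phosphorylate YAP1 and WWTR1 and keep them out of the nucleus, so that the activity of the coactivators is set largely at the protein level and is not read from their transcripts. In hepatic stellate cells, YAP activity accompanies the change into collagen-producing myofibroblasts, and the secreted matrix proteins CCN1 and CCN2 are among its best known targets; CCN2 is also induced by TGF-β through SMAD factors.

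The series held 9 libraries of total RNA from LX-2 cells, with "wide type" as the genotype label, grown in DMEM with fetal bovine serum, in 3 groups of 3. The control libraries carry no treatment label. Those of the TGF-β group were labelled TGF-β (Day 1), and those of the TGF-β + uridine group were labelled with both agents on day 1. By the study's methods TGF-β was given first and the medium was then replaced with medium containing uridine. The study gives a uridine dose for activated LX-2 cells but does not name one for the sequenced cells separately. All groups are 1 cell line, and the labels do not say whether the libraries of a group came from separate cultures, so that p-values measure the spread between these libraries, which may be technical.

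Each library held between 40539751 and 41467124 reads counted on genes, and between 16157 and 17108 genes had reads. Of 11 stellate cell markers, 10 were listed. VIM lay between 1006 and 1863 CPM (reads scaled to a common library size, here after normalization), and COL1A1 between 41.5 and 69.8, while COL1A2 and HAND2 had at most 1 read in a library. The summed level of the listed stellate markers was 1078 to 1261 CPM in control, 1944 to 2016 with TGF-β and 1609 to 1874 with TGF-β + uridine. Of 11 markers of other liver cells 8 were listed, with summed levels of 29.2 to 39.0, 41.1 to 43.0 and 33.8 to 44.3 CPM; without CD68 the sums were 2.56 to 4.53 CPM over all libraries, and APOA1 and EPCAM had at most 5 reads. The control libraries also differed from each other in how levels moved with the GC content of genes, and this is given beside the genes it touches.

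Levels per gene length are given first, in FPKM (fragments scaled to gene length and library size), the scale on which different genes can be compared. TEAD4 stood highest in every group, with a mean of 66.8 ± 5.67 FPKM in control, 66.9 ± 1.499 with TGF-β and 81.8 ± 3.45 with TGF-β + uridine (SD, n = 3). CCN1 came second, at 18.6 ± 3.55, 54.6 ± 2.15 and 40.6 ± 2.94 FPKM. FPKM carries no correction for library composition, unlike the normalized CPM below. In control the libraries of CCN1 (14.8 to 21.7 FPKM) overlapped those of AJUBA (11.6 to 14.9 FPKM), and in both treated groups CCN1 stood apart from its neighbours in the order.

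AJUBA and AMOTL2 followed, at 13.01 to 13.5 and 9.52 to 11.3 FPKM in group means. They overlapped in control and were separate in the TGF-β and TGF-β + uridine groups. YAP1 (5.05 to 7.03 FPKM in group means) and WWTR1 (5.06 to 5.64 FPKM) were not separated in any group. LATS2 (2.70 to 3.84 FPKM) and TEAD1 (2.82 to 3.43 FPKM) overlapped in control and in the TGF-β + uridine group, and in the TGF-β group CCN2 stood between them and overlapped both. CCN2 moved from 0.456 ± 0.301 FPKM in control to 2.95 ± 0.0519 with TGF-β and 1.82 ± 0.263 with TGF-β + uridine (SD, n = 3), and ANKRD1 was lowest throughout, at 0.0591 to 0.0859 FPKM in group means.

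**Figure D1:**
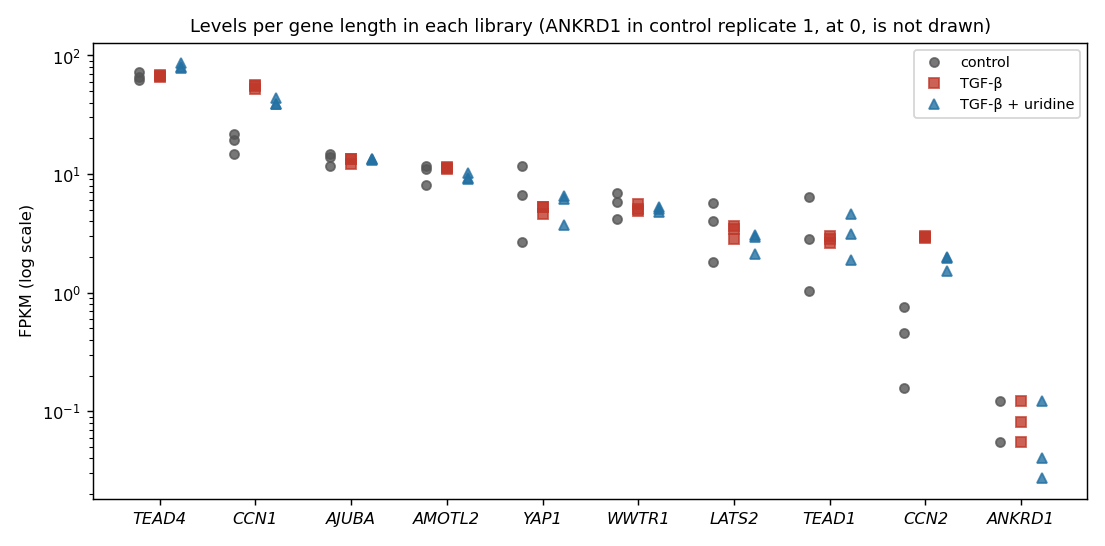
FPKM of the 10 genes in each library on a log axis, ordered by their mean over the 9 libraries, with 3 points per group. TEAD4 lies highest and ANKRD1 lowest in all groups, and CCN1 and CCN2 are the genes whose 3 groups stand apart from each other.

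YAP1 (ENSG00000137693; chr11:102110461-102233423, plus strand, GRCh38) gave 20.1, 39.8 and 63.2 normalized CPM in the control libraries, 29.7, 32.7 and 32.5 with TGF-β, and 36.8, 24.9 and 37.9 with TGF-β + uridine. The control libraries spanned a 3.14-fold range that held every treated library. Between TGF-β and control the log2 fold change was -0.38 (SE 0.35, 95% interval -1.17 to 0.41, adjusted p = 0.891, edgeR quasi-likelihood test), and between TGF-β + uridine and TGF-β it was 0.07 (-0.72 to 0.86, adjusted p = 0.999). Both intervals held changes of either sign, so that at this spread no direction could be given. For TGF-β against control leaving out control replicate 1 gave a log2 fold change of -0.71, and leaving out control replicate 3 gave 0.08.

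WWTR1 (ENSG00000018408; chr3:149517235-149736714, minus strand), the paralogue of YAP1, was much steadier. It gave 29.4, 32.1 and 34.8 normalized CPM in control, 29.3, 32.3 and 29.4 with TGF-β, and 28.5, 29.6 and 28.3 with TGF-β + uridine. All groups overlapped, and the 95% intervals of the log2 fold changes were -0.32 to 0.16 for TGF-β against control, -0.32 to 0.17 for TGF-β + uridine against TGF-β and -0.40 to 0.08 for TGF-β + uridine against control. Its exons overlap the antisense gene WWTR1-AS1, which had at most 34 reads in a library; whether counting used strand is not given in the sources used here. The ratio of YAP1 to WWTR1 in FPKM ran from 0.637 to 1.69 in control, from 0.940 to 1.03 with TGF-β and from 0.782 to 1.25 with TGF-β + uridine.

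TEAD1 (ENSG00000187079; chr11:12674591-12944483, plus strand), a TEAD factor that carries YAP1 and WWTR1 to DNA, had the widest control spread of the 9 tested genes. Its normalized CPM were 11.8, 25.6 and 52.3 in control, 25.6, 28.3 and 26.4 with TGF-β, and 28.2, 19.1 and 39.9 with TGF-β + uridine. The control range was 4.45-fold and held all treated libraries, and the log2 fold changes were -0.16 (SE 0.46) for TGF-β against control and 0.12 (SE 0.46) for TGF-β + uridine against TGF-β. The first became -0.55 without control replicate 1 and 0.52 without control replicate 3, and the second became -0.18 without TGF-β + uridine replicate 3.

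TEAD4 (ENSG00000197905; chr12:2959330-3040673, plus strand), another TEAD factor, gave 153.2, 109.1 and 92.0 normalized CPM in control, 121.8, 115 and 112.4 with TGF-β, and 131.3, 158.8 and 128.3 with TGF-β + uridine. With uridine all 3 libraries were above all 3 of the TGF-β group, and both groups overlapped the control libraries. The log2 fold change of TGF-β + uridine against TGF-β was 0.26 (SE 0.18, 95% interval -0.14 to 0.67, adjusted p = 0.797), and against control it was 0.24 (adjusted p = 0.613). Against control it was called in 6 of 19 alternative fits, among them limma on log2(FPKM + 1) (0.29, adjusted p = 0.0229), which called 14.3% of the genes it held, and edgeR without control replicate 1 (0.45, adjusted p = 0.0263), which called 17.6%. Of the summed FPKM of TEAD1, TEAD2, TEAD3 and TEAD4, TEAD4 made up 74.6% to 82.9% in the 9 libraries and TEAD1 1.117% to 7.77%. In control replicates 1, 2 and 3 the TEAD1 share was 1.117%, 3.38% and 7.77%, rising as the GC slope of these libraries, given below, fell.

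LATS2 (ENSG00000150457; chr13:20973032-21061547, minus strand), the kinase that phosphorylates YAP1 and is itself a YAP target, gave 13.6, 23.7 and 30.0 normalized CPM in control. It gave 17.9, 21.1 and 22.2 with TGF-β and 18.0, 13.8 and 16.7 with TGF-β + uridine. The control libraries overlapped both treated groups, and the uridine libraries were at or below 18.0 CPM against 17.9 CPM for the lowest TGF-β library. The log2 fold change was -0.14 (SE 0.26) for TGF-β against control, -0.34 (95% interval -0.93 to 0.26, adjusted p = 0.836) for TGF-β + uridine against TGF-β, and -0.47 (95% interval -1.07 to 0.12, adjusted p = 0.427) for TGF-β + uridine against control. Without control replicate 1 the last was -0.76 (adjusted p = 0.0120). The first was -0.40 without that library and 0.13 without control replicate 3.

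AMOTL2 (ENSG00000114019; chr3:134355874-134375479, minus strand), a scaffold of the angiomotin family that holds YAP1 outside the nucleus and is also a YAP target, varied little within each group. Its normalized CPM were 50.7, 55.3 and 52.8 in control, 59.3, 58.4 and 59.5 with TGF-β, and 46.6, 50.8 and 48.7 with TGF-β + uridine. Every TGF-β library was above every library of the other two groups. The log2 fold change was 0.16 (SE 0.087, adjusted p = 0.581) for TGF-β against control and -0.28 (SE 0.087, adjusted p = 0.378) for TGF-β + uridine against TGF-β.

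AJUBA (ENSG00000129474; chr14:22971174-22982642, minus strand), a LIM-domain adaptor that binds and restrains LATS kinases, gave 67.0, 64.0 and 60.8 normalized CPM in control, 59.6, 63.8 and 62.7 with TGF-β, and 60.8, 67.1 and 58.3 with TGF-β + uridine. All 3 groups overlapped. The 95% intervals of its log2 fold changes, -0.26 to 0.17, -0.21 to 0.21 and -0.26 to 0.17 for the 3 comparisons in the same order as for WWTR1, lay close around 0.

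**Figure D2:**
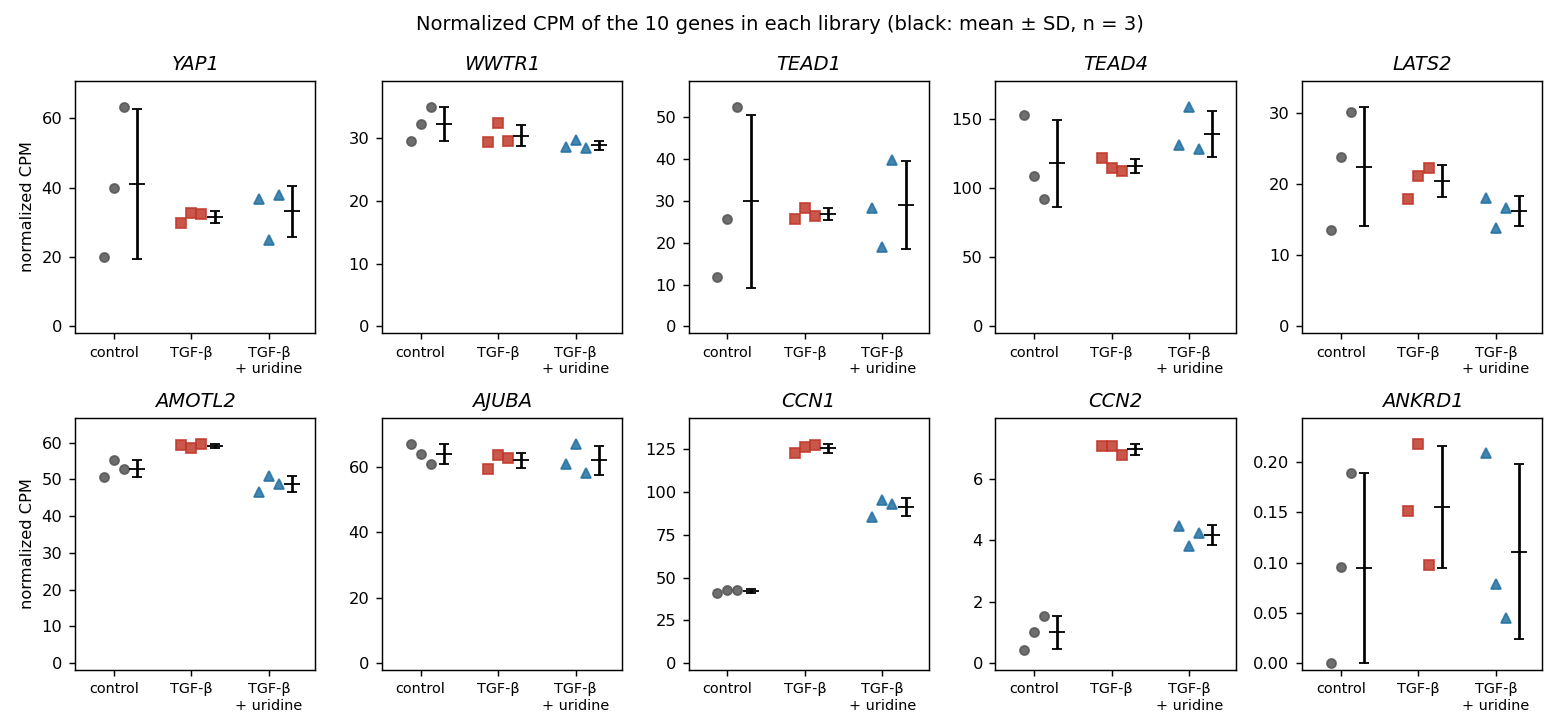
Normalized CPM of each of the 10 genes in the 3 control, 3 TGF-β and 3 TGF-β + uridine libraries (points), with the group mean ± SD in black, each panel on its own linear axis that includes 0. CCN1 and CCN2 form 3 separate levels, and the control libraries of YAP1, TEAD1 and LATS2 cover the treated ones.

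CCN1 (CYR61; ENSG00000142871; chr1:85580761-85583962, plus strand), a secreted matricellular protein and immediate-early target of YAP/TEAD, also varied little within each group. It gave 40.97, 42.7 and 42.8 normalized CPM in control, 122.7, 126.2 and 127.7 with TGF-β, and 85.3, 95.4 and 92.7 with TGF-β + uridine, from 1383 to 5242 reads. The 3 groups did not overlap. TGF-β raised CCN1 2.98-fold over control (log2 1.57, SE 0.086, adjusted p = 2.67e-05), and with TGF-β + uridine it was 2.16-fold above control (log2 1.11, SE 0.085, adjusted p = 1.71e-04). In bulk RNA, a change in the number of cells that express a gene and a change in RNA per cell cannot be told apart. Between TGF-β + uridine and TGF-β the log2 fold change was -0.46 (SE 0.084, 95% interval -0.65 to -0.27) and the adjusted p = 0.164 (edgeR, over all tested genes), so that this difference did not pass the threshold of 0.05. It passed in 5 of 19 alternative fits, where the adjusted p ranged from 2.30e-05 to 0.722 and the log2 fold change from -0.50 to -0.42.

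CCN2 (CTGF; ENSG00000118523; chr6:131948176-131951373, minus strand), a secreted matricellular protein made by stellate cells in fibrosis, was far less abundant. It had 15, 43 and 73 reads in the control libraries, 281, 292 and 278 with TGF-β, and 192, 146 and 188 with TGF-β + uridine. In normalized CPM these were 0.444, 1.02 and 1.53, then 7.07, 7.07 and 6.77, then 4.46, 3.82 and 4.25. No library of one group overlapped another group, although control replicate 1 was 3.45-fold below control replicate 3. TGF-β raised CCN2 6.88-fold (log2 2.78, SE 0.38, 95% interval 1.93 to 3.64, adjusted p = 0.00400), and it was called in all 19 alternative fits. With TGF-β + uridine it was 4.13-fold above control (log2 2.05, SE 0.37, adjusted p = 0.0145), a call that was lost without control replicate 2 (adjusted p = 0.0730), without TGF-β + uridine replicate 1 (0.0603) or 3 (0.0507) and with only the 2 groups in the model (0.110). Between TGF-β + uridine and TGF-β the log2 fold change was -0.74 (SE 0.35, 95% interval -1.53 to 0.06, adjusted p = 0.614).

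With 3 libraries against 3, an exact permutation test of a single gene cannot go below p = 0.1, the value that it gave for each difference of CCN1 and CCN2. CCN1 exceeded CCN2 in every library, and the ratio of their FPKM was 94.6, 42.8 and 28.7 in control, 17.8 to 19.4 with TGF-β and 19.6 to 25.7 with TGF-β + uridine. Both the TGF-β and the TGF-β + uridine libraries lay below all control libraries in this ratio. Its control values rest on the 15 to 73 reads of CCN2. The exons of CCN2 overlap an antisense gene, AL133346.1, which has no row in the table.

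ANKRD1 (ENSG00000148677; chr10:90912096-90921276, minus strand), an ankyrin repeat protein of muscle and a standard YAP/TEAD reporter gene, was close to undetected. It had 0, 4 and 9 reads in control, 6, 9 and 4 with TGF-β, and 9, 3 and 2 with TGF-β + uridine. The groups overlapped and no test was made. A count of 0 in control replicate 1 allows up to 3 reads, or 0.0888 normalized CPM, and such limits cover counting error only. A change of ANKRD1 was not detectable at this depth.

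The promoters of CCN2 and ANKRD1, which hold more than 1 TEAD core, are shown with that of AMOTL2 start 2, which holds 1, because CCN2 and ANKRD1 are standard YAP/TEAD targets and AMOTL2 is a target that also restrains YAP1. Sequences are from RefSeq on GRCh38.p14, the 250 bases before the start, 5′ to 3′ on the strand of the gene, with the TEAD core GGAATG, or CATTCC on the other strand, in capitals. CCN2 lies at chr6:131951373-131951622, ANKRD1 at chr10:90921088-90921337 and AMOTL2 start 2 at chr3:134374448-134374697, all on the minus strand.
CCN2: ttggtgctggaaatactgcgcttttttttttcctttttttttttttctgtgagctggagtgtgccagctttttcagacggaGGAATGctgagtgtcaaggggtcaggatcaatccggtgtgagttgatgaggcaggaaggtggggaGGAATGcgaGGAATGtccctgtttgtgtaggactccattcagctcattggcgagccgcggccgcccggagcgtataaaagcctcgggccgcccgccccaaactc
ANKRD1: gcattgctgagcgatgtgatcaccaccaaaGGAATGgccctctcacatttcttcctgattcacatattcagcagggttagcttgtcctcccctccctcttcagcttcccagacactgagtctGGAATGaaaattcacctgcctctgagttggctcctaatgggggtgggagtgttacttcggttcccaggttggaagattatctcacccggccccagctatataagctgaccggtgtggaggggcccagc
AMOTL2 start 2: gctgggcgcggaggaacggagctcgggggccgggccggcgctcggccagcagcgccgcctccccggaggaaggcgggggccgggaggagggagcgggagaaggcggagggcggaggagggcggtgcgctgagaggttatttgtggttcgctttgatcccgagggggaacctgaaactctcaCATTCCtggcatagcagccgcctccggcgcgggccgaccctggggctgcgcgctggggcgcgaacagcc

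RefSeq windows of 300 bases, from 250 before to 50 after a start, were matched for 7 of the 10 genes (10 windows) by symbol. Windows for CCN1, TEAD1 and TEAD4 were not used here. On both strands, the TEAD core began at -169, -104 and -95 from the start of CCN2 (-1 is the base just before the start), at -220 and -128 in ANKRD1, at -162 in YAP1, at -69 in AMOTL2 start 2, at -59 in AJUBA start 2 and at 9 in LATS2. WWTR1 had none in either of its windows. Of 35116 RefSeq windows of the same length, 14% held at least 1 TEAD core, 1.37% at least 2 and 0.128% at least 3.

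The motif of AP-1, the Jun and Fos proteins, was searched in the loose form TGANTCA, with N any base. A match was found in ANKRD1 at -195, reading TGATTCA, and in no other window of these genes, against 7.71% of all windows. The SMAD motif CAGAC was found in windows of 6 of the 7 genes. Of all windows 45.3% held it. The 7 genes have 10 windows, so that this share per window cannot be set against a count of genes. In CCN2 it began at -177, and in ANKRD1 at -142 and, on the other strand, at -132, where it shares a base with the TEAD core at -128. These matches describe letters in a window and not bound sites, and ANKRD1 with 2 TEAD cores had at most 9 reads in a library while CCN2 with 3 had up to 292.

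**Figure D3:**
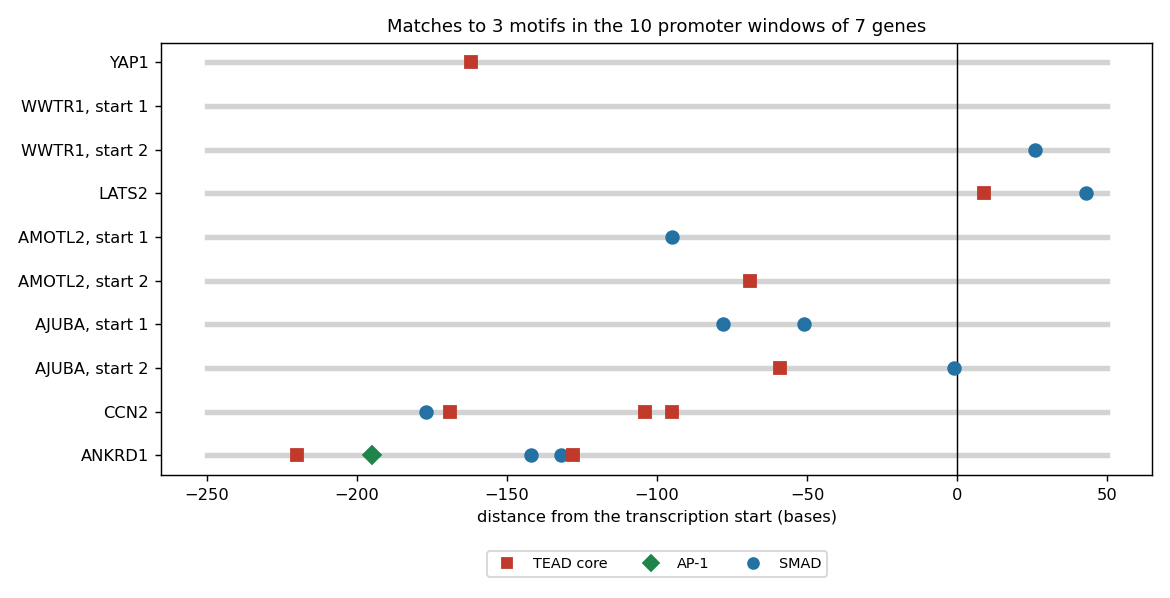
Positions of matches to the TEAD core, the AP-1 motif and the SMAD motif in the 10 promoter windows of 7 genes, as distance in bases from the transcription start (vertical line). CCN2 holds 3 TEAD cores and ANKRD1 2, and no other window holds more than 1.

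For the TGF-β effect as a whole, 2 of the 9 tested genes were called, CCN1 and CCN2, both higher. Over all 13384 tested genes 3.38% were called in either direction and 2.42% were called higher. The 10 genes were chosen with earlier results of these data known, so that shares over all genes, here and below, are given as a description. The median log2 fold change of the 9 genes was -0.04, beside -0.05 over all genes. The libraries of the 2 groups did not overlap for 3 of the 9 tested genes (CCN1, CCN2 and AMOTL2, all higher with TGF-β), against 17.7% of all tested genes.

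For the uridine effect, TGF-β + uridine against TGF-β, none of the 9 genes was called by edgeR, against 0.0448% of all tested genes. At an unadjusted p under 0.05 there were 2, CCN1 and AMOTL2, both lower, against 8.79% of all genes. DESeq2 called 2, CCN1 and AMOTL2, against 1.78% of all genes, and limma on log2(FPKM + 1) called 0, against 3.89%. The libraries did not overlap for 4 of the 9 tested genes, CCN1, CCN2 and AMOTL2 lower and TEAD4 higher with uridine, against 25.6% of all tested genes. This comparison and that of TGF-β with control share the TGF-β libraries. The median log2 fold change of the 9 genes was -0.08, beside 0.02 over all genes.

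For TGF-β + uridine against control, 2 of 9 genes were called, CCN1 and CCN2, both higher, while 5.33% of all tested genes were called in either direction and 2.89% higher. The libraries did not overlap for these 2 genes alone, against 19.7% of tested genes. The median log2 fold change of the 9 genes was -0.04, beside -0.01 over all genes.

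**Figure D4:**
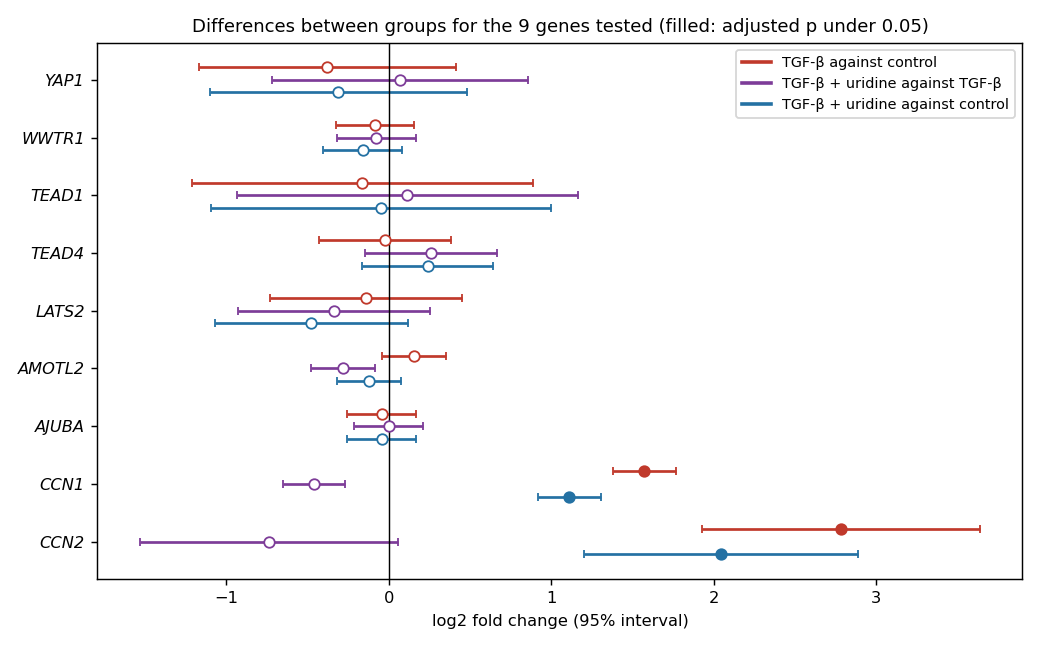
Log2 fold changes of the 9 tested genes with 95% intervals in the 3 comparisons, filled where the adjusted p was under 0.05. CCN1 and CCN2 are filled in both comparisons with control, and the intervals of TEAD1 and YAP1 are wide on both sides of 0.

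The levels of several of these genes moved with a property of the libraries. The slope of log2 CPM on the GC fraction of genes, taken on deviations from each gene's mean, was 5.59, -0.72 and -4.05 in the control libraries, 0.53, -0.33 and -0.12 with TGF-β, and -0.51, 2.25 and -2.65 with TGF-β + uridine. Levels of YAP1 (43.5% GC) and TEAD1 (41.3% GC) fell in the order of rising slope within all 3 groups, and those of TEAD4 (60.4% GC) rose with it in the control and TGF-β + uridine groups. Control replicate 3 exceeded control replicate 1 by 1.65 log2 units for YAP1 and 2.15 for TEAD1, beside a median of 1.17 over the 2604 tested genes with 40% to 45% GC. For TEAD4 the difference was -0.74, beside a median of -0.79 over genes of 60% GC or more.

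WWTR1, LATS2, CCN1 and CCN2 also fell in the order of rising slope in control, by amounts that differed from the median of their GC range. Outside control, WWTR1 fell with the slope in the TGF-β group and rose with it in the TGF-β + uridine group, and LATS2, CCN1 and CCN2 kept neither order. WWTR1 (40.9% GC) differed by 0.24 between control replicates 3 and 1, and LATS2 (51.8% GC) and CCN2 (51.5% GC) by 1.14 and 1.68, beside a median of -0.26 over genes of 50% to 55% GC. CCN1 (50.3% GC) differed by 0.06 and AMOTL2 (56.7% GC) by 0.06. With the slope as a covariate, a value estimated from the same counts, TGF-β + uridine against TGF-β called 5 of the 9 genes: CCN1 (log2 -0.46, adjusted p = 8.62e-05), TEAD4 (0.28, 0.00100), AMOTL2 (-0.28, 0.00361), CCN2 (-0.78, 0.00750) and LATS2 (-0.37, 0.0198). That fit called 2561 genes in all (19.1%). For the listed genes around them it called 4 lower and 1 higher of 21 other YAP/TEAD targets, 1 lower and 2 higher of 14 upstream regulators, 1 lower of 8 SMAD response genes and 2 lower of 7 stellate markers, ACTA2 and VIM, and it called CCN5 lower. Its calls also held LATS2 (log2 -0.47, adjusted p = 0.00286), TEAD4 (0.31, 1.73e-04) and YAP1 (-0.28, 0.0158) for TGF-β + uridine against control, where it called 31.2% of all genes. For TGF-β against control, where it called 20.3%, they held YAP1 (-0.27, 0.0248).

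**Figure D5:**
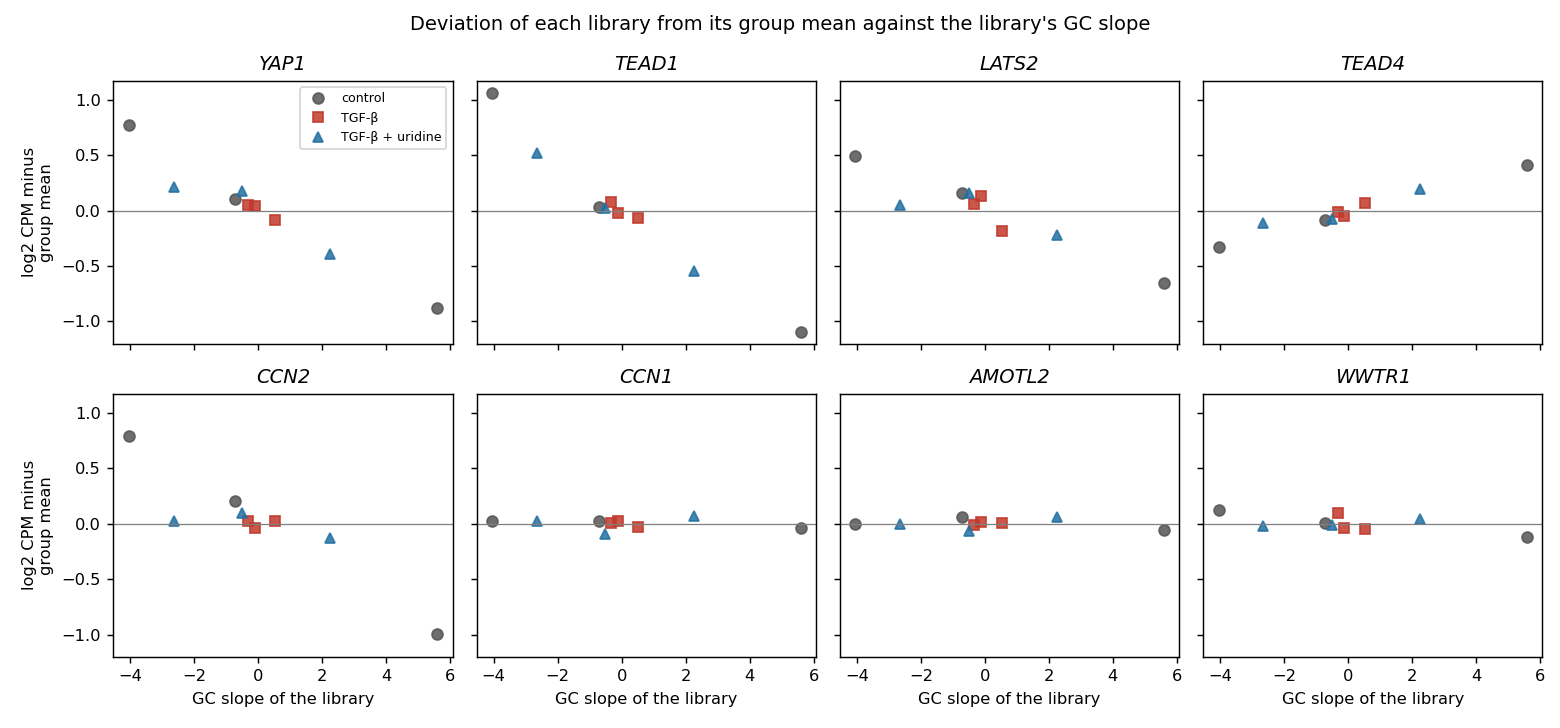
Deviation of each library from its group mean in log2 CPM against the GC slope of the library (log2 CPM per unit of GC fraction), for 8 of the genes and all 9 libraries. The control libraries span slopes from -4.05 to 5.59, along which YAP1 and TEAD1 fall and TEAD4 rises, while CCN1, AMOTL2 and WWTR1 stay near 0.

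The genes around these 10 in the pathway were counted from lists. In the core kinase cassette (STK3, STK4, SAV1, MOB1A, MOB1B and LATS1), 0 of 6 genes were called by edgeR, DESeq2 or limma in any of the 3 comparisons and 0 had an unadjusted p under 0.05 by edgeR. The limma fit, on log2(FPKM + 1) of genes past a minimum level, held 4 of these 6 genes and 10 of the regulators that follow. The cassette's median log2 fold change was -0.26 for TGF-β against control, 0.24 for TGF-β + uridine against TGF-β and -0.08 for TGF-β + uridine against control. For all 6 genes the groups overlapped, and control levels rose from replicate 1 to 3 as the GC slope of these libraries fell. STK4 gave 5.30, 15.4 and 23.7 normalized CPM in control and 13.8, 8.34 and 15.6 with TGF-β + uridine. The part of the GC slope in these medians was not tested. Of 14 tested upstream regulators 0 were called by edgeR in any comparison, with medians of -0.06, -0.01 and -0.03 and with 0, 1 and 2 genes at an unadjusted p under 0.05. Over all 13384 tested genes, 1623, 1177 and 2360 had such a p in the same comparisons. With lists this short, these low counts are given as a description. For TGF-β + uridine against control, DESeq2 called AMOTL1 lower and limma called WWC1 higher, and neither tool called one in the other two comparisons. WWC1 (KIBRA), an activator of LATS kinases, had 72.8 to 77.4 normalized CPM in control, 73.6 to 76.6 with TGF-β and 85.7 to 105.6 with uridine (log2 0.33 against TGF-β, SE 0.098, adjusted p = 0.362). It was the regulator with an unadjusted p under 0.05 in that comparison. TEAD2, TEAD3, VGLL3 and VGLL4, the TEAD factors and cofactors listed, were called by none of the 3 tools, with 0 at an unadjusted p under 0.05 in the 3 comparisons and medians of -0.17, 0.01 and -0.17.

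Among 21 other genes described as YAP/TEAD targets, edgeR called 6 higher with TGF-β and none lower, against 2.42% of all tested genes called higher. Of the 21, 14 had a positive log2 fold change, and the median was 0.42 beside -0.05 over all genes. The list was chosen with earlier results of these data known. TGFBI, a secreted matrix protein induced by TGF-β, went from 302 to 332 normalized CPM in control to 2154 to 2306 with TGF-β (log2 2.84, adjusted p = 3.50e-06). IGFBP3, which binds insulin-like growth factors, rose by log2 1.85 (adjusted p = 0.00146) and CCDC80, a matrix protein, by 1.62 (adjusted p = 0.00357). The other 3 were THBS1, NT5E and EDN1. Several of the 6 are known as TGF-β-induced genes as well, so that membership of this list does not separate YAP/TEAD from SMAD input.

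With TGF-β + uridine against TGF-β, 0 of these 21 genes were called by edgeR, DESeq2 and limma each called TGFBI alone, 3 had an unadjusted p under 0.05 and the median was -0.15 beside 0.02 over all genes. TGFBI stood at 1546 to 1784 normalized CPM with uridine, below every TGF-β library (log2 -0.42, adjusted p = 0.261), and IGFBP3 at 20.4 to 23.5, above every TGF-β library (log2 0.27, adjusted p = 0.825). Against control, 6 of the 21 were called by edgeR, all higher, beside 2.89% of all tested genes called higher. The median of the 21 was 0.29 beside -0.01 over all genes.

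Of the other CCN genes, CCN3 and CCN5 were listed, and neither was called by edgeR in any comparison. CCN5, a CCN protein that lacks the C-terminal domain of its relatives, had 29.03 to 51.7 normalized CPM in control, 42.4 to 54.3 with TGF-β and 21.4 to 29.1 with TGF-β + uridine. All uridine libraries were below all TGF-β libraries, with a log2 fold change of -0.96 (SE 0.22, adjusted p = 0.257). DESeq2 and limma called CCN5 lower in this comparison, and limma also against control. CCN3 had 1.69 to 4.19, 2.21 to 2.98 and 3.06 to 3.57 normalized CPM in the same order. With uridine its libraries were above all TGF-β libraries (log2 0.38, adjusted p = 0.865).

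The SMAD response genes, read as a measure of TGF-β input, gave 4 of 8 called with TGF-β, all higher (median log2 0.86). Among them were PMEPA1 (log2 2.59), LTBP2 (1.84) and BHLHE40 (0.96). Over all tested genes 3.38% were called with TGF-β in either direction and 2.42% higher. With uridine added 0 of the 8 were called against TGF-β by edgeR or limma, DESeq2 called 1, and 1 had an unadjusted p under 0.05. Stellate markers gave 3 of 7 tested called with TGF-β, ACTA2, PDGFRB and VIM, all higher, beside the same 2.42%. With uridine against TGF-β, 0 were called by edgeR, DESeq2 or limma and 0 had an unadjusted p under 0.05. Of 4 tested markers of other liver cells, 1 was called with TGF-β, CDH5 of endothelial cells, which fell from 11 to 45 reads in control to 0 to 3 (adjusted p = 0.0314), and 0 with uridine against TGF-β by any of these tools and 0 at an unadjusted p under 0.05. PECAM1, the other endothelial marker tested, lay the other way, at 0.905 to 1.51 normalized CPM in control, 1.61 to 2.57 with TGF-β (log2 0.91, adjusted p = 0.168) and 2.42 to 2.65 with TGF-β + uridine (log2 1.13 against control, adjusted p = 0.0589, called by DESeq2), and the fit with the GC slope covariate described above called it higher in both TGF-β groups than in control. Against control, TGF-β + uridine gave 5 of 8 SMAD response genes (SMAD7 among them) and 5 of 7 stellate markers (COL1A1 and COL3A1 with the 3 above), all higher. In that comparison 2.89% of all tested genes were called higher. The part of these marker levels in the CCN differences was not tested.

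Among the genes whose pattern over the 9 libraries was most like that of CCN1 were TUFT1 (Pearson r of log2 CPM 0.998) and CDKN2B (0.991), of 9832 genes searched. TUFT1 gave 13.9 to 15.0 normalized CPM in control, 40.4 to 41.3 with TGF-β and 29.7 to 32.4 with TGF-β + uridine, and CDKN2B 9.86 to 14.6, 60.3 to 61.4 and 35.3 to 39.5. For CCN2 they were CCDC80 (0.997), UBASH3B (0.994) and AMIGO2 (0.994). AMIGO2 gave 13.9 to 32.9, 92.1 to 98.3 and 50.02 to 65.6 normalized CPM. The libraries are 3 groups of 3 and differ in GC slope. The 101st most similar gene still had r = 0.943 for CCN1 and 0.932 for CCN2, so that these are descriptions of a pattern that many genes had. For ANKRD1, with 0 to 9 reads, the leading genes were ATP6V1B2 (0.970), PPP2R1B (0.917) and ANXA7 (0.915), and a likeness at such counts is no finding.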

How the data were processed

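Total RNA of 9 LX-2 libraries was analysed, 3 per group, with groups from the sample labels. The authors deposited counts of reads per gene symbol, not normalized, and FPKM values of the same genes. Division of counts by FPKM and by library totals gave 1 length per gene in all libraries, so that FPKM carried no TMM scaling. The submitters' processing notes name fastp, HISAT2, HTSeq, R 3.2.0 and GRCh38.p13; the annotation is not given in the sources used here.

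The edgeR 4.0.16 quasi-likelihood test (R 4.3.3; filterByExpr for low counts, TMM scaling, two-sided) was applied to the counts in 1 model of condition over 9 libraries, with Benjamini-Hochberg adjustment over 13384 genes and a threshold of 0.05. Normalized CPM are TMM-scaled. Alternatives were DESeq2 1.42.0, RLE factors, no filter, an absolute log2 fold change of at least 1, only the 2 groups compared, limma 3.58.1 on log2 FPKM with a pseudocount of 1 or 0.1 (mean FPKM 0.5 or more) or on every listed gene, a GC slope covariate, a replicate block, both together, and each library left out. The edgeR, DESeq2 and limma fits were run on simulated counts with a constant spread and no GC slope, for limma without scaling to gene length. The fits with a covariate, a block or a library left out were not run on simulated counts. GC content and positions come from GENCODE v29 on GRCh38 (12818 tested genes, 95.8%), and promoters from RefSeq.

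The 10 genes and the lists were chosen with earlier results of these data known. All 10 genes are named in every comparison, and of each list the called genes, at most the 3 with the smallest adjusted p, or all of 5 or fewer. Likeness was ranked among tested genes whose mean log2 CPM (prior count 2) was 1 or more. Results for some genes within these rules are not reported here.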

Additional observations from a re-analysis of the deposited data

How the results depend on the processing

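For TGF-β against control, 2 of the 9 genes were called, CCN1 and CCN2, in every alternative except the fits with the GC slope covariate, which called 3. For TGF-β + uridine against TGF-β the count of 0 became 2 with DESeq2, 2 with only the 2 groups compared, 5 with the GC slope covariate and 5 with the covariate and the replicate block, and 0 to 1 when a library was left out (1 without control replicate 1, CCN1). For TGF-β + uridine against control the count of 2 became 1 with only the 2 groups compared, 5 with the covariate, 5 with the covariate and the replicate block, 3 in each of the 3 limma fits (with TEAD4), and 1 to 4 when a library was left out, with 4 (CCN1, CCN2, LATS2 and TEAD4) without control replicate 1. The cause was not tested. Without control replicate 1 the genes called in all rose to 1085, 271 and 2413 in the 3 comparisons. For TGF-β + uridine against TGF-β, DESeq2 called 1.78% of all genes and the covariate fit 19.1%. The fit of only the 2 groups called 141 higher and 176 lower of 13011 genes there. The covariate with the block called 1074 higher and 997 lower of 13384. For TGF-β + uridine against control these 2 fits called 149 higher and 73 lower of 13088, and 2148 higher and 1618 lower of 13384.

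With the replicate block alone the counts were 2, 0 and 2. Of 9 pairs of libraries with the same number, 2 had deviations correlated above 0.1 (r from -0.21 to 0.56), so that the numbers were not read as pairs. No log2 fold change called in the main fit turned its sign. YAP1, called lower only with the GC slope covariate in both comparisons with control, reached 0.08 and 0.15 when a library was left out. Over all genes, the counts ranged from 229 to 2720, from 0 to 2561 and from 222 to 4170 over the settings that left out no single library; 229 and 222 are from the fits of only the 2 groups compared. Depth limits ANKRD1, and the control spread limits YAP1, TEAD1 and LATS2.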
